A study of Homo sapiens with 3 samples.

Results

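Chromatin-modifying enzymes were followed as a set of 77 genes, of the 18345 genes in the deposited tables. They were chosen by symbol: the lysine methyltransferases named KMT or SETD with DOT1L, EHMT1 and EHMT2, the Polycomb genes EZH1, EZH2, EED and SUZ12, the lysine demethylases (KDM), the zinc-dependent deacetylases (HDAC), the sirtuins (SIRT), the lysine acetyltransferases (KAT), the arginine methyltransferases (PRMT) and the TET dioxygenases. The RNA-seq libraries were made from cells of H1, which is a human embryonic stem cell line in wide use, after differentiation towards blood; the labels give day 4. No gene was deleted or added, and all populations shared the same culture: 2 days in medium containing activin A (40 ng/ml) plus BMP4 (50 ng/ml), followed by 3 days in VEGF (40 ng/ml) plus bFGF (50 ng/ml). How day 4 fits these stage lengths is not settled here. All cells were sorted as CD31+CD34+, called HEPs in the labels, and divided by surface CD105 (endoglin) into CD105high, CD105low and CD105neg.

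Each population had 1 library, so no comparison below has a replicate check, and none carries a p-value. The values were treated as FPKM, read fragments scaled to transcript length and library size. They add up to 265618 in CD105high, 284824 in CD105low and 289229 in CD105neg. The gate genes were present in all libraries: ENG, which encodes CD105, stood at 13.8 FPKM in CD105high, 8.56 FPKM in CD105low and 2.12 FPKM in CD105neg. PECAM1 (CD31) and CD34, used to sort all populations, were not level. PECAM1 stood at 50.1 FPKM in CD105high, 41.9 FPKM in CD105low and 29.9 FPKM in CD105neg. CD34 stood at 43.2 FPKM in CD105high, 39.2 FPKM in CD105low and 21.0 FPKM in CD105neg. Among the 8 endothelial markers 7 were at least 1.5-fold higher in CD105high than in CD105neg, and all 7 erythroid and megakaryocyte markers that reached 1 FPKM were 1.5-fold lower or more. Of the 11343 genes that reached 1 FPKM in a library, 5.65% were that much higher and 6.88% lower. Fewer cells of a type and less RNA per cell cannot be told apart in such bulk samples.

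Histone tails carry acetyl and methyl groups that enzymes add (writers) and remove (erasers). Acetylation by KAT enzymes accompanies open chromatin and is removed by HDAC enzymes and sirtuins. Methylation of H3K4 marks promoters and enhancers, H3K36 and H3K79 transcribed gene bodies, and H3K9 and H3K27 silenced regions, the last being the work of the Polycomb complex PRC2. TET enzymes oxidise methylated cytosine in DNA. During early blood formation, enzymes of several of these classes are known to act, among them DOT1L and KDM1A in mouse.

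Most of the set was present. In CD105high 70 of the 77 genes reached 1 FPKM (90.9%), in CD105low 71 (92.2%) and in CD105neg 70 (90.9%). Of all genes 59.5% did in CD105high, 60.3% in CD105low and 60.2% in CD105neg. A gene that reached 1 FPKM in any of the 3 libraries is called measured, which holds for 71 of the 77. Their median level was 9.02 FPKM in CD105high, 8.21 FPKM in CD105low and 8.48 FPKM in CD105neg, and that of the 11343 measured genes of the series was 9.12 FPKM in CD105high, 9.76 FPKM in CD105low and 9.43 FPKM in CD105neg. The other 6 symbols stayed under the limit in every library. KDM4E and KDM4F are listed at 0 in all of them. PRMT8, a neuronal arginine methyltransferase, did not exceed 0.0327 FPKM, KAT6B 0.447 FPKM, HDAC9 0.614 FPKM and SETD1B 0.838 FPKM. KDM4D was counted as measured only through CD105low, where it stood at 1.02 FPKM.

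**Figure D1:**
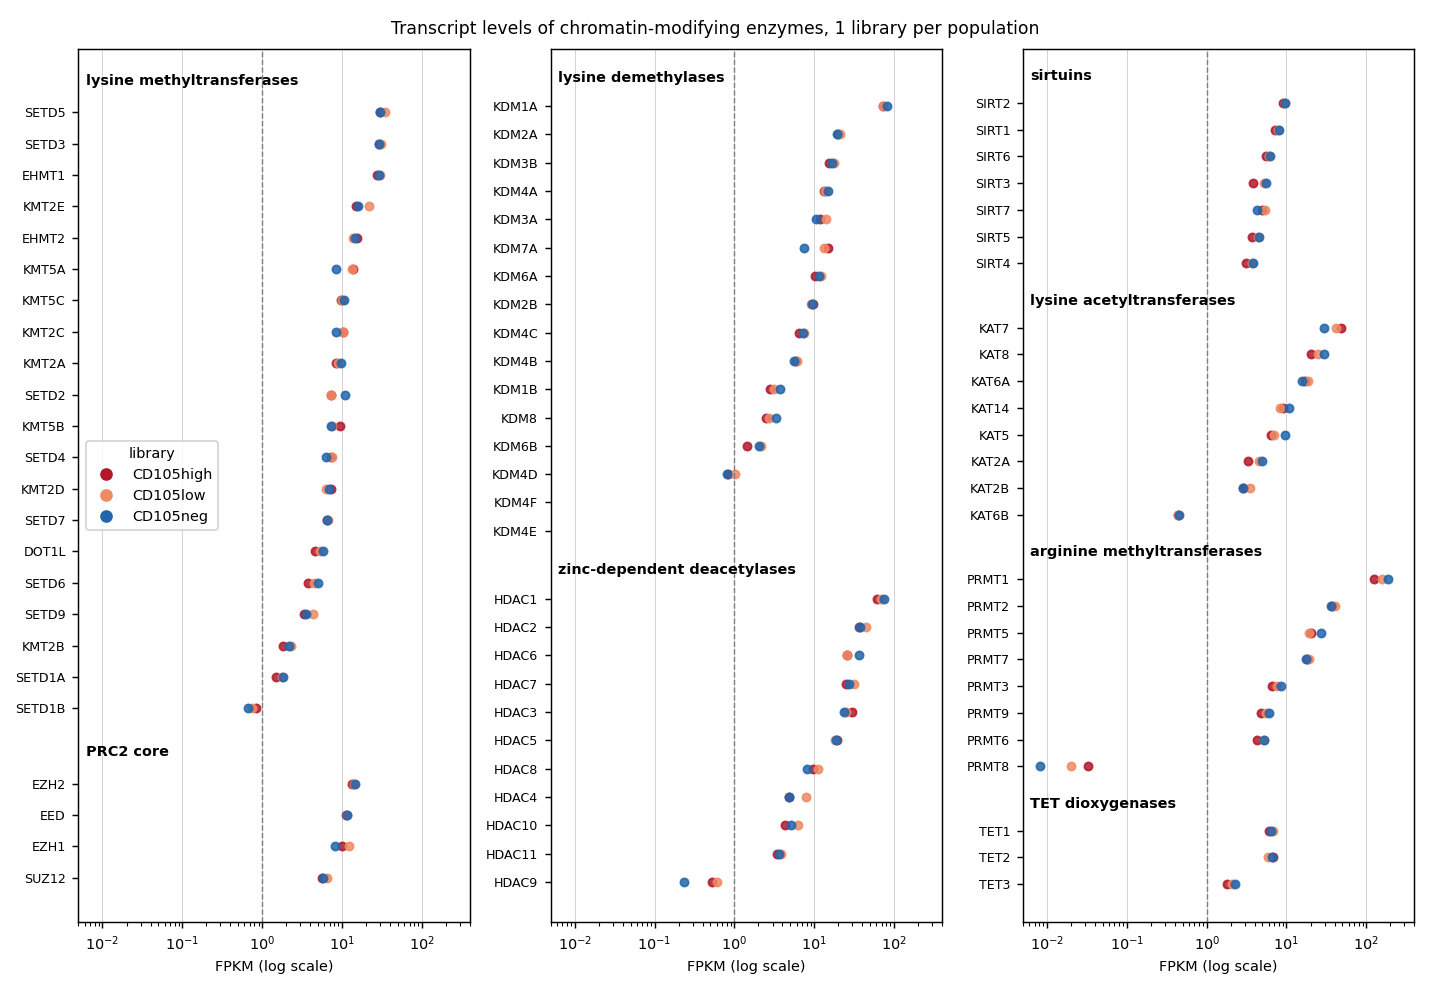
Level of each of the 77 genes in FPKM (log scale, x axis), grouped by enzyme class and ordered by mean level, with 1 point per library (CD105high, CD105low and CD105neg) and a dashed line at 1 FPKM. The points of a gene mostly lie close together, PRMT1 is the highest gene at 124.6 to 184.8 FPKM, and KDM4E and KDM4F, at 0, have no point.

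Differences between the populations were few. Fold changes are given as log2 of FPKM + 1 in 1 library over another, a scale that understates the change of low genes, and a gene was counted when at least 1.5-fold apart. In CD105high against CD105neg, 3 of the 71 measured members were higher (4.23%) and 0 were lower; among all measured genes 5.65% were higher and 6.88% were lower. The 3 were KDM7A, KAT7 and KMT5A. In CD105low against CD105neg, 3 members were higher, KDM7A, KMT5A and HDAC4, and 0 lower, against a background of 4.13% higher and 2.18% lower. In CD105high against CD105low, 0 members were higher and 1 was lower, HDAC4, against a background of 1.18% and 2.19%. These comparisons share libraries, so they are not independent of each other. The shares of higher members in both comparisons with CD105neg are near the background.

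The spread of the members was narrow. In all 3 pairs 67 of 71 stayed within 1.5-fold (94.4%), and 9669 of 11343 measured genes did (85.2%). CD105high against CD105neg gave a median log2 fold change of -0.10 over the members and -0.09 over all measured genes. CD105low against CD105neg gave 0.03 and 0.02, and CD105high against CD105low gave -0.12 and -0.10. The middle 50% of members lay between -0.24 and 0.03 in CD105high against CD105neg, and that of all measured genes between -0.30 and 0.13. Scaling the libraries to the same total shifts the median of all genes by 0.11 in that comparison, so the sign of small values depends on the scale. There 22 members were above and 49 below 0 as deposited, 34 and 37 after centring on the median gene, and 38 and 33 with equal totals. In CD105high against CD105low these were 14 and 57, 30 and 41, and 27 and 44.

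A lower limit of 0.32 on the log2 scale took in more members. In CD105high against CD105neg 4 were higher and 10 lower (5.63% and 14.1%), against 12.9% and 22.8% of all measured genes. CD105low against CD105neg had 8 higher and 5 lower (11.3% and 7.04%), against 12.7% and 9.5%. CD105high against CD105low had 0 higher and 7 lower (9.86%), against 4.16% and 11.2%. At 2-fold on the deposited FPKM + 1 scale 0 members were apart in any pair, though KDM7A passed 2-fold in alternatives given below. Of all measured genes 1.89% were higher and 1.31% lower in CD105high against CD105neg. These shares were 0.996% and 0.361% in CD105low against CD105neg, and 0.273% and 0.379% in CD105high against CD105low. The medians of the lysine methyltransferases, PRC2 core, zinc-dependent deacetylases and TET genes in CD105high against CD105neg turn positive after centring and with equal totals. Values of single members that are neither past 1.5-fold nor among the highest 2 of a class, the PRC2 core, DOT1L, HDAC3 and TET3 were chosen after they were seen.

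**Figure D2:**
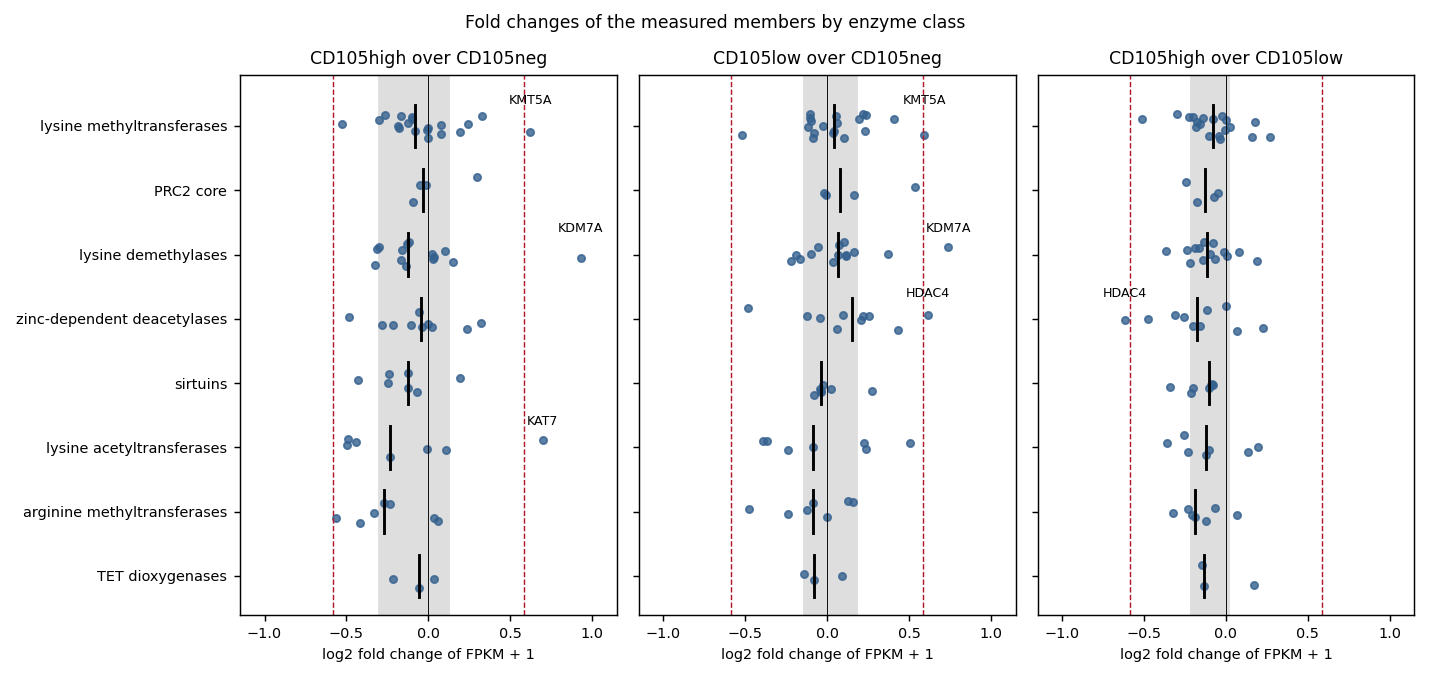
Log2 fold change of FPKM + 1 (x axis) of each measured member by enzyme class (y axis) in the 3 pairs of libraries, with the class median as a black bar, the middle 50% of all measured genes shaded and dashed lines at 1.5-fold. Labels name the members past 1.5-fold: KMT5A, KDM7A and KAT7 in CD105high over CD105neg, KMT5A, KDM7A and HDAC4 in CD105low over CD105neg, and HDAC4 in CD105high over CD105low.

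KDM7A (ENSG00000006459.10), a demethylase that binds methylated H3K4 through a PHD finger and removes methyl groups from H3K9 and H3K27, showed the widest difference of the set. It stood at 15 FPKM in CD105high, 13.1 FPKM in CD105low and 7.41 FPKM in CD105neg. Both CD105-bearing libraries were thus well above CD105neg and near each other. The log2 fold change was 0.93 in CD105high and 0.74 in CD105low against CD105neg, and 0.19 between CD105high and CD105low. With a pseudocount of 5 the value of CD105low against CD105neg was 0.54, under the 1.5-fold line. That of CD105high against CD105neg was then 0.69. It passed 2-fold with a pseudocount of 0.1 (1.01), after centring (1.02) and with equal totals (1.11).

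KAT7 (ENSG00000136504.11), also called HBO1, is an acetyltransferase of the MYST family that works on histones H3 and H4 with scaffold proteins of the BRPF and JADE families. It stood at 48.3 FPKM in CD105high, 42.1 FPKM in CD105low and 29.4 FPKM in CD105neg, so its levels followed the CD105 gates. The log2 fold change was 0.70 in CD105high against CD105neg and 0.50 in CD105low against CD105neg. Of its sampled transcript sequence 13.0% also occurs in transcripts of other genes.

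KMT5A (ENSG00000183955.12) adds the methyl group to H4K20 and is known to vary over the cell cycle. It stood at 13.6 FPKM in CD105high, 13.3 FPKM in CD105low and 8.51 FPKM in CD105neg. CD105high and CD105low were nearly level and both above CD105neg, with log2 fold changes of 0.62 and 0.59 against it. With a pseudocount of 5 these were 0.46 and 0.44, and after centring on the median gene the value of CD105low was 0.58, so that the 1.5-fold call was lost in those settings. Of its sampled sequence 30.7% is shared, most of all with the pseudogene SETD8P1, so its level is uncertain. The 12 markers of G2 and mitosis had a median log2 fold change of 0.13 in CD105high and 0.27 in CD105low against CD105neg. In each comparison 1 of the 12 was at least 1.5-fold higher (8.33%), beside 5.65% and 4.13% of all measured genes. The part of these markers in the KMT5A values was not tested.

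HDAC4 (ENSG00000068024.16), a class IIa deacetylase that shuttles between cytoplasm and nucleus and binds MEF2 factors, had another pattern. It stood at 4.81 FPKM in CD105high, 7.91 FPKM in CD105low and 4.83 FPKM in CD105neg. CD105low was alone above the others, with a log2 fold change of 0.61 against CD105neg; CD105high against CD105low gave -0.62. With a pseudocount of 5 these values were 0.39 and -0.40, and after centring the value of CD105high against CD105low was -0.52, all within 1.5-fold.

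The promoters of these 4 genes are shown because they are the members whose transcript levels differed by 1.5-fold. Each is the RefSeq sequence on GRCh38.p14 from 250 bases before to 50 bases after an annotated start, written 5′ to 3′ on the gene's strand, in lower case. Capitals mark matches, on either strand, to the GC box (GGGCGG), the motif CCAAT, the ETS core (CCGGAAG), the TATA box (TATAAA) and the E-box (CACGTG). Matches of the same motif can overlap, as in the downstream KMT5A promoter. Of the 5 starts of HDAC4 in the table, the one with the most CpG dinucleotides is shown; which start the cells used was not measured.
KDM7A, chr7:140176934-140177233, minus strand: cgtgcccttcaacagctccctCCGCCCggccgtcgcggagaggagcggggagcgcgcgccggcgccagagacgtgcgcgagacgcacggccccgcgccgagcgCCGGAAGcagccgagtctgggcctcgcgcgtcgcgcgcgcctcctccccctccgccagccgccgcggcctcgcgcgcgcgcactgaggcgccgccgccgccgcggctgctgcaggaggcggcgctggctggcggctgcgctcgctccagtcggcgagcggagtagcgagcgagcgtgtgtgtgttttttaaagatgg
KAT7, chr17:49788431-49788730, plus strand: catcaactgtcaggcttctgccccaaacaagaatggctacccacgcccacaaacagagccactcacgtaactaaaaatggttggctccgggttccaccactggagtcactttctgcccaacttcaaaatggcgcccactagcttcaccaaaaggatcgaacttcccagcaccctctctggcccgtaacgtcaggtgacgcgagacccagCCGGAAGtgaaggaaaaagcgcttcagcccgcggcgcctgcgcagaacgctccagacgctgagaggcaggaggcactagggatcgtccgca
KMT5A upstream start, chr12:123383882-123384181, plus strand: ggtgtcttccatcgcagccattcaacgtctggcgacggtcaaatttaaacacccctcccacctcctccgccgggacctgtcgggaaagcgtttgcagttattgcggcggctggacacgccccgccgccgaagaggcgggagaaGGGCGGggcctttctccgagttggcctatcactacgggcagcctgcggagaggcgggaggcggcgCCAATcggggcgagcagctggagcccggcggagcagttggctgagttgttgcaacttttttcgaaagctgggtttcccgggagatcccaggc
KMT5A downstream start, chr12:123388661-123388960, plus strand: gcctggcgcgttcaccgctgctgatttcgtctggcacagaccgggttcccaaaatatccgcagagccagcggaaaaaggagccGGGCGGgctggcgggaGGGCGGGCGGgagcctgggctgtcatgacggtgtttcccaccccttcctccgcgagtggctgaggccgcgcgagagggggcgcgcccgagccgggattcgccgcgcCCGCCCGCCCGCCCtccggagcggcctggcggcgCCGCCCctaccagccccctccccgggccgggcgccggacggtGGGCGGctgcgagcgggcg
HDAC4, chr2:239401600-239401899, minus strand: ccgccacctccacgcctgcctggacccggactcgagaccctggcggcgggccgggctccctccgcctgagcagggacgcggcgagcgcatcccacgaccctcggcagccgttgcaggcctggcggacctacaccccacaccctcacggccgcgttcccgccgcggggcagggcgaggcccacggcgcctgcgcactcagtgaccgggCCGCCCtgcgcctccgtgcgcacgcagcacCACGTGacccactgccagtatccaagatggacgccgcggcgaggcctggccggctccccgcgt
The sequence of KDM7A has 77.0% G and C and 56 CpG dinucleotides, that of KAT7 57.7% and 19. The upstream and downstream starts of KMT5A have 64.0% and 76.3% with 28 and 42 CpG, and the HDAC4 start 76.3% with 40. KDM7A and KAT7 each hold 1 ETS core, and KDM7A also 1 GC box. The upstream KMT5A start holds 1 GC box and 1 CCAAT, the downstream KMT5A start 8 GC boxes, and the HDAC4 start 1 GC box and 1 E-box. An ETS core was found in 13.1% of the 107 promoters of members, in 16.7% of the 13015 promoters of measured genes and in 10.3% of all 35116 promoters. A GC box was found in 68.2%, 66.3% and 45.0% of them. For CCAAT these shares were 33.6%, 34.4% and 34.6%, and for the E-box 12.1%, 9.2% and 7.26%. A TATA box was found in 2 of the 107 (1.87%), in 5.96% of promoters of measured genes and in 11.5% of all. The median promoter of the members had 67.0% G and C, and that of measured genes 65.0%. RefSeq promoters matched 70 of the 77 members by symbol.

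Among methyltransferases that act on H3K4, levels were alike in the 3 populations. The 7 genes together stood at 36.5 FPKM in CD105high, 36.9 FPKM in CD105low and 36.1 FPKM in CD105neg. KMT2C, an enhancer methyltransferase, stood at 10.2 FPKM in CD105high and in CD105low and 8.51 FPKM in CD105neg. KMT2A, which is known for its role in leukaemia, stood at 8.34 FPKM in CD105high, 8.86 FPKM in CD105low and 9.58 FPKM in CD105neg, with 23.9% of its sequence shared. The remaining members, KMT2D, SETD7, KMT2B, SETD1A and SETD1B, lay between 0.665 and 7.26 FPKM.

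KMT2E, a relative for which no methyltransferase activity is established, stood at 14.8 FPKM in CD105high, 21.5 FPKM in CD105low and 16.0 FPKM in CD105neg. Its log2 fold change of -0.51 in CD105high against CD105low is among the lowest of the set and under the 1.5-fold limit. SETD2, the enzyme of H3K36 trimethylation, stood at 7.35 FPKM in CD105high, 7.38 FPKM in CD105low and 11 FPKM in CD105neg. CD105neg was alone above the others, by log2 fold changes of -0.53 and -0.52, both just inside 1.5-fold. The H4K20 enzymes KMT5B and KMT5C did not share the size of the KMT5A difference: KMT5B had a log2 fold change of 0.33 and KMT5C of -0.13 in CD105high against CD105neg. EHMT1 and EHMT2, partners in H3K9 methylation, summed to 42.5 FPKM in CD105high, 43.6 FPKM in CD105low and 43.7 FPKM in CD105neg. DOT1L, the H3K79 methyltransferase, stood at 4.6 FPKM in CD105high, 5.34 FPKM in CD105low and 5.73 FPKM in CD105neg, with 11.5% of its exon bases under an exon of a gene on the other strand.

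By the mean over the 3 libraries, SETD5 and SETD3 were the highest of the lysine methyltransferase genes; in CD105neg alone EHMT1 was above SETD3. SETD5 stood at 30.0 FPKM in CD105high, 34.6 FPKM in CD105low and 30.1 FPKM in CD105neg. SETD3, whose known substrate is a histidine of actin, stood at 28.8 FPKM in CD105high, 31.0 FPKM in CD105low and 28.8 FPKM in CD105neg. Over the 19 measured genes of the class, 1 was higher and 0 lower in CD105high against CD105neg and in CD105low against CD105neg, with class medians of -0.08 and 0.04. The 1 of 19 is 5.26%, near the 5.65% and 4.13% of all measured genes that were higher in these comparisons.

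The PRC2 core was level. EZH2, its main catalytic subunit in dividing cells, stood at 13.5 FPKM in CD105high, 14.3 FPKM in CD105low and 14.5 FPKM in CD105neg. EED, which reads the H3K27 mark, stood at 11.1 FPKM in CD105high, 11.5 FPKM in CD105low and 11.5 FPKM in CD105neg, and SUZ12, the scaffold, at 5.64 FPKM in CD105high, 6.52 FPKM in CD105low and 5.70 FPKM in CD105neg. The signs of these 3 genes in CD105high against CD105neg, -0.10, -0.05 and -0.01, turn with scaling to the same total. EZH1, the alternative catalytic subunit, which restrains blood stem cell potential in mouse and human precursors, was the 1 core gene with a wider range: 10.1 FPKM in CD105high, 12.1 FPKM in CD105low and 8.05 FPKM in CD105neg. Its log2 fold change in CD105low against CD105neg was 0.54 (1.45-fold), the nearest value below the line, and it passed the line with a pseudocount of 0.1 (0.59) and with equal totals (0.60). The ratio of EZH2 to EZH1 was accordingly 1.34 in CD105high, 1.18 in CD105low and 1.80 in CD105neg.

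Among the demethylases, KDM1A (LSD1), the flavin-dependent enzyme that removes methyl groups from H3K4 within the CoREST complex, was the highest at 73.5 FPKM in CD105high, 73.1 FPKM in CD105low and 82.3 FPKM in CD105neg. Its relative KDM1B stood at 2.76 FPKM in CD105high, 3.12 FPKM in CD105low and 3.70 FPKM in CD105neg, so that KDM1A exceeded it 26.7-fold in CD105high, 23.4-fold in CD105low and 22.2-fold in CD105neg. KDM2A, an H3K36 demethylase that binds CpG islands, was the second highest at 19.9 FPKM in CD105high, 21.1 FPKM in CD105low and 19.4 FPKM in CD105neg. The H3K9 demethylase KDM3A stood at 11.8 FPKM in CD105high, 13.9 FPKM in CD105low and 10.5 FPKM in CD105neg, and CD105low was highest. Of the H3K27 demethylases, KDM6A stood at 10.2 FPKM in CD105high, 12.3 FPKM in CD105low and 11.4 FPKM in CD105neg, and KDM6B at 1.45 FPKM in CD105high, 2.15 FPKM in CD105low and 2.02 FPKM in CD105neg, lowest in CD105high. The KDM4 genes KDM4A, KDM4B and KDM4C, erasers of H3K9 and H3K36 methylation, lay between 5.52 and 14.8 FPKM, and 52.6% of the sequence of KDM4A is shared. Of 14 measured demethylases 1 was higher, KDM7A, and 0 lower in both comparisons with CD105neg, with medians of -0.12 and 0.07. That is 7.14% of the class, beside 5.65% of all measured genes higher in CD105high and 4.13% in CD105low. No KDM5 symbol is among the genes with a value, so the counts and medians of this class leave the KDM5 genes out.

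HDAC1 and HDAC2, class I deacetylases that serve as catalytic subunits of nuclear corepressor complexes, were the highest HDAC genes. HDAC1 stood at 61.9 FPKM in CD105high, 69.3 FPKM in CD105low and 75.5 FPKM in CD105neg. HDAC2, its close paralogue, stood at 36.8 FPKM in CD105high, 44.1 FPKM in CD105low and 37.8 FPKM in CD105neg, and the ratio of HDAC1 to HDAC2 was 1.68 in CD105high, 1.57 in CD105low and 2.0 in CD105neg. HDAC3, the enzyme of the NCOR complexes, was highest in CD105high, with 29.6 FPKM in CD105high, 25.1 FPKM in CD105low and 23.5 FPKM in CD105neg. HDAC8 stood at 9.60 FPKM in CD105high, 11.2 FPKM in CD105low and 8.02 FPKM in CD105neg, with 28.8% of its sequence shared. No class I gene was 1.5-fold apart in a pair, beside 14.8% of all measured genes, and nothing is read from 4 genes.

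Of the class IIa enzymes, HDAC7, which is known for its part in endothelial integrity, stood at 25.1 FPKM in CD105high, 31.5 FPKM in CD105low and 27.2 FPKM in CD105neg. Exons of genes on the other strand cover 11.2% of its exon bases. HDAC5 stood at 19.0 FPKM in CD105high, 18.1 FPKM in CD105low and 18.7 FPKM in CD105neg. HDAC6, the cytoplasmic deacetylase of tubulin, stood at 25.4 FPKM in CD105high, 25.5 FPKM in CD105low and 36 FPKM in CD105neg. As with SETD2, the CD105high and CD105low values were nearly equal and CD105neg was above both (-0.48 in each comparison). HDAC10 is uncertain because 72.8% of its sequence is shared with the neighbouring MAPK12. Over 10 measured HDAC genes the median log2 fold change was -0.05 in CD105high against CD105neg and 0.15 in CD105low against CD105neg, beside -0.09 and 0.02 over all measured genes.

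Sirtuins, deacylases that consume NAD, were all between 3.07 and 9.69 FPKM. None of the 7 was 1.5-fold apart in any pair, beside 14.8% of all measured genes, and with so few genes nothing is read from it. The highest were SIRT2, mostly cytoplasmic, at 9.02 FPKM in CD105high, 9.69 FPKM in CD105low and 9.52 FPKM in CD105neg, and SIRT1, a nuclear enzyme, at 7.21 FPKM in CD105high, 7.81 FPKM in CD105low and 7.96 FPKM in CD105neg. The 3 mitochondrial sirtuins, SIRT3, SIRT4 and SIRT5, together stood at 10.6 FPKM in CD105high, 13.3 FPKM in CD105low and 13.9 FPKM in CD105neg, and each was in that order. The nuclear SIRT1 and SIRT6 had it too, so that 5 of the 7 sirtuins did, beside 36.4% of all measured genes. Of the sequence of SIRT5 12.3% is shared, and 16.1% of its exon bases lie under an exon of a gene on the other strand. SIRT3 had a log2 fold change of -0.43 in CD105high against CD105neg. SIRT7, a nucleolar enzyme, was the 1 sirtuin above CD105neg in CD105high (0.19).

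Among the acetyltransferases, log2 fold changes in CD105high against CD105neg ran between -0.49 and 0.70. KAT7 was the highest gene of the class and KAT8 the next. KAT8 (MOF), the enzyme of H4K16 acetylation, stood at 20.4 FPKM in CD105high, 24.6 FPKM in CD105low and 29.1 FPKM in CD105neg, the reverse of the KAT7 order. The ratio of KAT7 to KAT8 was therefore 2.37 in CD105high, 1.71 in CD105low and 1.01 in CD105neg. KAT5 (TIP60) stood at 6.45 FPKM in CD105high, 7.01 FPKM in CD105low and 9.5 FPKM in CD105neg, but 38.6% of its exon bases lie under RNASEH2C on the other strand, and such libraries do not tell the strands apart. KAT2A (GCN5), an H3 acetyltransferase of the SAGA complex, stood at 3.33 FPKM in CD105high, 4.54 FPKM in CD105low and 4.87 FPKM in CD105neg, while its paralogue KAT2B stood at 2.82 FPKM in CD105high, 3.49 FPKM in CD105low and 2.84 FPKM in CD105neg. KAT6A, which blood stem cells need in mouse, stood at 17.0 FPKM in CD105high, 18.7 FPKM in CD105low and 15.7 FPKM in CD105neg. The class median was -0.23 in CD105high and -0.08 in CD105low against CD105neg, beside -0.09 and 0.02 over all measured genes. In CD105high 1 of 7 measured genes of the class was higher than in CD105neg and 0 were lower, beside 5.65% and 6.88% of all measured genes.

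**Figure D3:**
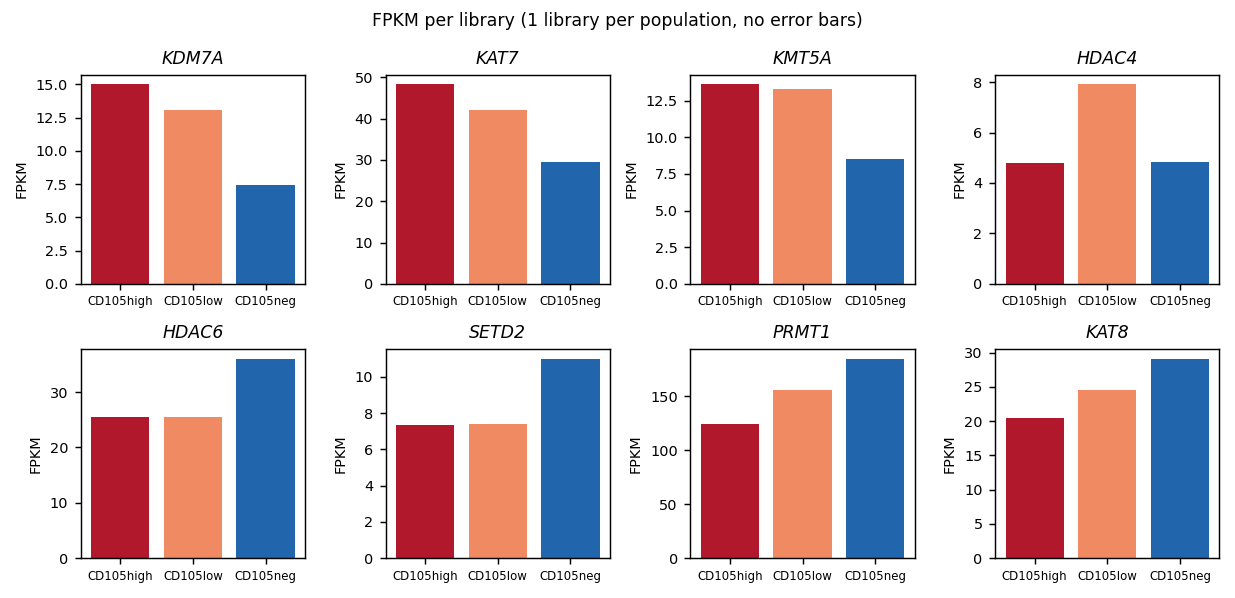
FPKM (y axis, from 0) in the CD105high, CD105low and CD105neg libraries for 8 members, with 1 library per bar and no error bars. The upper row holds the members past 1.5-fold, with KDM7A, KAT7 and KMT5A above CD105neg in both other libraries and HDAC4 at 7.91 FPKM in CD105low; the lower row holds HDAC6, SETD2, PRMT1 and KAT8, chosen after their values were seen, which are highest in CD105neg and within 1.5-fold.

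PRMT1, the source of most asymmetric dimethylarginine in cells, was the most abundant member of the whole set. It stood at 124.6 FPKM in CD105high, 156.2 FPKM in CD105low and 184.8 FPKM in CD105neg. With a log2 fold change of -0.56 in CD105high against CD105neg (a ratio of 0.676) it was the lowest member in that comparison and the nearest above the line of 1.5-fold lower. PRMT5, the main enzyme of symmetric dimethylarginine, stood at 20.0 FPKM in CD105high, 19.1 FPKM in CD105low and 27.0 FPKM in CD105neg, with 27.1% of its exon bases under PRMT5-AS1. PRMT3, a methyltransferase of a ribosomal protein, stood at 6.54 FPKM in CD105high, 7.70 FPKM in CD105low and 8.48 FPKM in CD105neg. PRMT2, the second highest gene of the class, stood at 37.4 FPKM in CD105high, 40.7 FPKM in CD105low and 36.5 FPKM in CD105neg, and PRMT7 at 18.2 FPKM in CD105high, 19.1 FPKM in CD105low and 17.4 FPKM in CD105neg. The summed level of the class was 215.9 FPKM in CD105high, 253.6 FPKM in CD105low and 285.4 FPKM in CD105neg. Most of each sum is PRMT1. The class median log2 fold change in CD105high against CD105neg was -0.27, the lowest of the 8 classes, beside -0.09 over all measured genes. After centring it was -0.18 and with equal totals -0.19. Of the 7 measured genes 5 were below CD105neg and 2, PRMT2 and PRMT7, above it. None was 1.5-fold apart in that comparison, and nothing is read from 7 genes. The 12 DNA replication genes MCM2 to TYMS summed to 380.8 FPKM in CD105high, 453.4 FPKM in CD105low and 564.7 FPKM in CD105neg, with none at 0. Of these 5 of 12 were 1.5-fold or more below CD105neg in CD105high, beside 6.88% of all measured genes. The part of the replication genes in the PRMT values was not tested.

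The TET genes were level. TET1, high in pluripotent cells, stood at 6.07 FPKM in CD105high, 6.83 FPKM in CD105low and 6.35 FPKM in CD105neg. TET2, often mutated in blood cancers, stood at 6.76 FPKM in CD105high, 5.88 FPKM in CD105low and 6.59 FPKM in CD105neg, and TET3 at 1.82 FPKM in CD105high, 2.10 FPKM in CD105low and 2.27 FPKM in CD105neg. None was 1.5-fold apart in any pair, beside 14.8% of all measured genes, and nothing is read from 3 genes.

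**Figure D4:**
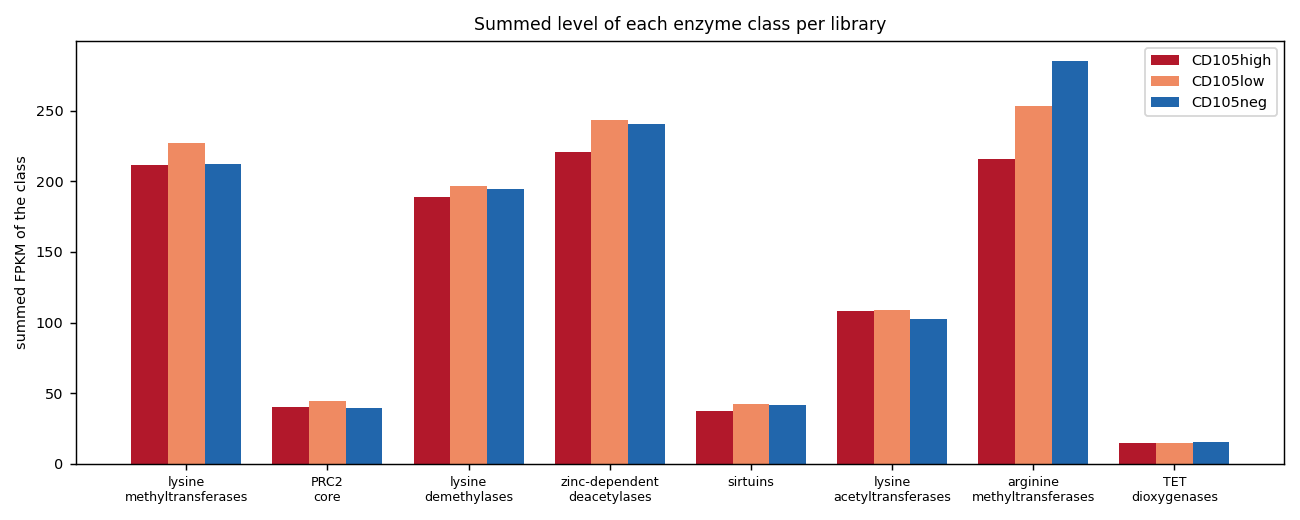
Summed FPKM (y axis, from 0) of all members of each enzyme class in the CD105high, CD105low and CD105neg libraries. Arginine methyltransferases stand at 215.9 FPKM in CD105high, 253.6 FPKM in CD105low and 285.4 FPKM in CD105neg, while the sums of the other classes differ less between libraries. Most of each arginine methyltransferase sum is PRMT1.

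Summed over all 77 genes, the set made up 0.390% of the CD105high total, 0.397% of the CD105low total and 0.392% of the CD105neg total. The order of the libraries was counted for each of the 71 measured members. In 26 the value was lowest in CD105high and highest in CD105neg with CD105low between (36.6%, against 36.4% of all measured genes). In 6 it was highest in CD105high with CD105low between (8.45%, against 17.6%): KDM7A, KAT7, KMT5A, KMT5B, KMT2C and HDAC3. In 31 CD105low was highest (43.7%, against 35.1%) and in 8 lowest (11.3%, against 10.9%). All 3 members 1.5-fold apart in CD105high against CD105neg had CD105low between, as did 89.0% of the 1421 measured genes past the same limit, so nothing is read from it. These shares describe 3 libraries, and the differences from all genes were not tested.

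Partners of these enzymes in their complexes, taken from a list of 93 symbols of which 76 had a value and 74 were measured, were counted in the same way. Of the 18 symbols of HDAC complex subunits 7 had a value. The NCOR, RCOR, MTA and MBD genes of that list had none, so the counts do not cover them. In CD105high against CD105neg 0 were higher and 1 was lower (1.35%), against 5.65% and 6.88% of all measured genes, and the median log2 fold change was -0.09 in both sets. In CD105low against CD105neg 2 were higher (2.7%) and 0 lower, against 4.13% and 2.18%, with a median of 0.02 in both sets. In CD105high against CD105low 0 were higher and 2 lower (2.7%), against 1.18% and 2.19%, with medians of -0.12 over the partners and -0.10 over all measured genes. The gene lower in CD105high than in CD105neg was ING5, a subunit of KAT6 and KAT7 complexes, at 8.56 FPKM in CD105high, 12 FPKM in CD105low and 13.7 FPKM in CD105neg. Its log2 fold change of -0.62 was -0.53 after centring, -0.54 with equal totals and -0.46 with a pseudocount of 5, all within 1.5-fold. Its relative ING4 stood at 7.65 FPKM in CD105high, 8.07 FPKM in CD105low and 10.3 FPKM in CD105neg, and the scaffold BRPF1 at 6.09 FPKM in CD105high, 7.26 FPKM in CD105low and 6.52 FPKM in CD105neg.

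The partners higher in CD105low were TBL1XR1, which joins HDAC3 in the NCOR complexes, and PCGF6, a subunit of a variant PRC1. TBL1XR1 stood at 61.1 FPKM in CD105high, 82.9 FPKM in CD105low and 46.3 FPKM in CD105neg, and PCGF6 at 4.59 FPKM in CD105high, 7.45 FPKM in CD105low and 4.57 FPKM in CD105neg. PCGF6 and the lysine methyltransferase SMYD2, at 2.75 FPKM in CD105high, 5.61 FPKM in CD105low and 4.19 FPKM in CD105neg, were the 2 partners lower in CD105high than in CD105low. With a pseudocount of 5 neither gene was past 1.5-fold in any pair, and after centring and with equal totals the CD105high against CD105low value of PCGF6 was -0.50 and -0.57, within it. The subunits shared by the COMPASS methyltransferases, such as WDR5, ASH2L, RBBP5 and DPY30, were all within 1.5-fold, as were 85.2% of all measured genes. With their fellows they summed to 130.6 FPKM in CD105high, 142.6 FPKM in CD105low and 129.3 FPKM in CD105neg.

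Markers of other cell types also differed between the libraries. Summed erythroid and megakaryocyte markers stood at 12.6 FPKM in CD105high, 24.1 FPKM in CD105low and 66.9 FPKM in CD105neg, with none of the 8 at 0 in all libraries. Mesenchymal markers summed to 31.8 FPKM in CD105high, 46.3 FPKM in CD105low and 57.0 FPKM in CD105neg. Of the 4 measured genes 3 were 1.5-fold or more below CD105neg in CD105high, beside 6.88% of all measured genes. Leukocyte markers summed to 37.1 FPKM in CD105high, 46.9 FPKM in CD105low and 55.2 FPKM in CD105neg, nearly all of it LAPTM5, while PTPRC, the pan-leukocyte gene, is listed at 0 in CD105high and CD105low and at 0.00379 FPKM in CD105neg. Pluripotency markers summed to 40.7 FPKM in CD105high, 44.0 FPKM in CD105low and 44.3 FPKM in CD105neg, most of it DPPA4. In CD105high against CD105neg DPPA4 had a log2 fold change of 0.01 and L1TD1 of -0.04. TDGF1 (-0.35), EPCAM (-0.54) and CDH1 (-0.62, at most 1.80 FPKM) were lower, and only CDH1 was past 1.5-fold. The part of these cells in the values of KDM7A, KAT7, KMT5A, SETD2, HDAC6 and PRMT1 was not tested.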

How the data were processed

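RNA-seq gave gene levels in 3 libraries, 1 each of CD105high, CD105low and CD105neg cells. Per the labels' protocols, 2 ug of RNA per library went into a TruSeq kit, one that does not mark strand. Tools listed in the submitters' processing notes are RSEM, Bowtie and BWA, with hg19 as build; for versions, annotation and filters: not given in the sources used here. The deposited values carry no unit name in the file headers and were treated as FPKM, scaled by the authors to transcript length and library size; TPM cannot be told apart from it. The CD105neg file's value column is headed as if CD105 positive; its sample labels set the group.

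Members, gene lists and rules were chosen with earlier results of these data known. Members were taken by gene symbol (77 of 18345 rows). Genes that reached 1 FPKM in any library were kept (71 members, 11343 genes), log2 fold changes used FPKM + 1, and calls used 1.5-fold. Values in full were given for members past 1.5-fold in any pair, the 2 highest of each class, the PRC2 core and 8 fixed genes; others were chosen after their values were seen. With 1 library per group no test was run. The counting code was checked on simulated fold changes well past 1.5-fold and without noise. That check says nothing on calls near the limit or on the spread between libraries. Alternatives were other pseudocounts, filters, scalings and folds.

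The lowest values of single-transcript genes, multiplied by length, were set against a range of steps. The best step was 0.01255 FPKM kb in CD105high, 0.01175 in CD105low and 0.01305 in CD105neg. Near its multiples, or midway between them, lay 55.4% of these values in CD105high, 59.1% in CD105low and 57.9% in CD105neg. The median over the steps tried was 8.14% in CD105high, 8.26% in CD105low and 7.23% in CD105neg. If the values are FPKM and 1 step is 1 fragment, 1 FPKM on 1 kb is 79.7, 85.1 and 76.6 fragments, and the relative depth is 1.04 for CD105high and 1.11 for CD105low with CD105neg at 1. Read numbers are unknown, so no counting interval is printed.

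Shared sequence was measured on GENCODE 29 transcripts as the share of 50-base pieces, taken every 40 bases, that occur in another gene (14 members had at least 10%); overlap with exons on the other strand used the same annotation (7 members had at least 10%). Its build differs from hg19, so no coordinates of members are given except for the RefSeq promoters. Tools were Python 3.11.15, pandas 2.3.3, numpy 2.4.6 and matplotlib 3.10.9.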

Additional observations from a re-analysis of the deposited data

How the results depend on the processing

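No paired analysis was possible because each population has 1 library. The direction of every call held in the alternatives run, and the number of calls moved as follows. With a limit of 0.32 on the log2 scale in place of 1.5-fold, 14 members were apart in CD105high against CD105neg (4 higher, 10 lower, against 12.9% and 22.8% of all genes), 13 in CD105low against CD105neg (8 and 5, against 12.7% and 9.5%) and 7 in CD105high against CD105low (0 and 7, against 4.16% and 11.2%); CD105low lay between in 13 of the 14 (92.9%), as in 84.2% of the 4046 measured genes past that limit. With a fold of 2 on the deposited FPKM + 1 scale, 0 members were apart in any pair, and 0 had CD105low between. KDM7A in CD105high against CD105neg passed 2-fold with a pseudocount of 0.1 (1.01), after centring (1.02) and with equal totals (1.11). With a pseudocount of 5, 2 members (KDM7A and KAT7) were apart in CD105high against CD105neg, and 0 in each other pair. Centring left 0 in CD105high against CD105low and 2 in CD105low against CD105neg, and equal totals gave 4 in CD105low against CD105neg. With a pseudocount of 0.1 EZH1 also passed the limit in CD105low against CD105neg (0.59). The median log2 fold change of the members in CD105high against CD105neg was -0.10 and became -0.07 with a pseudocount of 5 and with no filter, -0.06 with a minimum of 5 FPKM, -0.01 after centring and 0.02 with equal totals, where its sign turned. In CD105low against CD105neg it was 0.03 and became 0.02 with a pseudocount of 5, with no filter and after centring, 0.04 with a pseudocount of 0.1 and with a minimum of 5 FPKM, and 0.06 with equal totals. In CD105high against CD105low it was -0.12 and became -0.14 with a pseudocount of 0.1, -0.07 with a pseudocount of 5, -0.10 with no filter, -0.09 with a minimum of 5 FPKM, -0.03 after centring and -0.04 with equal totals. Of 72 fold changes of named members, 12 changed sign after centring and 14 with equal totals, by unrounded values and all of them at most 0.10 in size as reported; none did with another pseudocount. Of the partners in CD105high against CD105neg, 1 was higher and 0 lower after centring, 4 and 0 with equal totals, 0 and 4 with a pseudocount of 0.1, and 0 in either direction with a pseudocount of 5. In CD105low against CD105neg 4 were higher with a pseudocount of 0.1 and 1 with a pseudocount of 5, and in CD105high against CD105low 1 was lower after centring and 0 with a pseudocount of 5. With equal totals EP400 also passed the limit in CD105low against CD105neg (0.62). In CD105high against CD105low PCGF2, at most 1.02 FPKM, passed it with a pseudocount of 0.1 (-1.01) and with equal totals (-0.75). With 1 library per population, the spread between samples is unknown, and the size of these differences cannot be set against it.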

Other observations

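In the list of DNA methylation genes, all 6 measured genes had negative log2 fold changes in CD105high against CD105neg, with a median of -0.34. None reached 1.5-fold, while 6.88% of all measured genes were at least that much lower. All measured genes had a median of -0.09. In the same comparison the 12 DNA replication markers had a median of -0.56, with 5 of 12 at least 1.5-fold lower; their part in these values was not tested. DNMT3B, a de novo DNA methyltransferase of early embryonic cells, stood at 43.4 FPKM in CD105high, 50.3 FPKM in CD105low and 58.7 FPKM in CD105neg. DNMT1, which copies methylation after replication, stood at 25.9 FPKM in CD105high, 28.5 FPKM in CD105low and 31.3 FPKM in CD105neg, and UHRF1, which recruits it, at 17.8 FPKM in CD105high, 21.3 FPKM in CD105low and 24.1 FPKM in CD105neg. DNMT3L is listed at 0 in all 3 libraries. Of 6 demethylase relatives outside the symbol rule, none was 1.5-fold apart in CD105high against CD105neg. Of all measured genes 5.65% were higher and 6.88% lower. The log2 fold changes of the 6 relatives ran between -0.20 (PHF8) and 0.45 (JMJD6), with a median of 0.10. JMJD6 stood at 13.9 FPKM in CD105high, 13.9 FPKM in CD105low and 9.93 FPKM in CD105neg, and with equal totals its value was 0.59, past the limit. JMJD1C stood at 43.4 FPKM in CD105high, 38.4 FPKM in CD105low and 31.7 FPKM in CD105neg. These genes were picked from the partner list after their values were seen.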
